A study of Mus musculus with 12 samples.

Results

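The comparison of liver from PGC-1beta mutant mice with liver from control mice rests on 6 of the 12 arrays of the series, 3 per genotype, chosen by their titles. Total RNA of liver and quadriceps muscle was hybridised to Affymetrix 430 2.0 arrays, and only the liver arrays are compared here. All mice were C57BL/6, and the mutants carried what the title calls a hypomorphic mutation of PGC-1beta; the sources used here do not give the structure of the allele, the age, the sex or the feeding state. The deposited values are linear probe set intensities, which were normalised by quantiles among the liver arrays, so every intensity below is a normalised one unless it is said to be as deposited. Differences are mutant minus control on the scale of log2(intensity + 16), a scale that understates the changes of dim genes.

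PGC-1beta, encoded by Ppargc1b, is a transcriptional coactivator that binds nuclear receptors and other factors, among them ERR-alpha, NRF1 and SREBP-1c, and raises the transcription of genes for mitochondrial respiration and lipid handling. In hepatocytes it is known for its part in mitochondrial gene expression and in the synthesis and export of lipid. A hypomorph retains some function, so the comparison asks how liver expression differs when this coactivator is reduced.

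Ppargc1b RNA read 547, 283 and 481 in controls 1 to 3 and 404, 494 and 203 in mutants 1 to 3. The groups overlapped, and the probe set was not past the threshold (-0.28, SE 0.32, adjusted p = 0.691 by limma). The related coactivator gene Ppargc1a read 119, 140 and 193 in controls and 114, 175 and 43.0 in mutants, again with overlap (-0.53, SE 0.37, adjusted p = 0.479 by limma). Mutant 3 had the lowest value of both genes. Of the 22 tested genes on the list of PGC-1 family members and partner factors, 0 passed by limma, and their median difference was -0.01. Tfam, the mitochondrial transcription factor that coats mitochondrial DNA, was 0.58 higher without passing (adjusted p = 0.0978 by limma).

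Defining hepatocyte markers were bright on all 6 arrays. The 13 hepatocyte markers, which include albumin, had a median intensity of 10800, and their summed intensity was 138800 to 142300 in controls and 120600 to 129800 in mutants. Alb itself read 13700, 13840 and 13120 in controls and 12340, 12540 and 12740 in mutants, a difference of -0.11 that did not pass (adjusted p = 0.406 by limma) and that was slightly above 0 on values as deposited (0.03) and after median centring (0.02). The 4 tested markers of skeletal muscle summed to at most 187 on any array. Of the markers of the other cell types a liver sample can hold, those of macrophages, lymphocytes and neutrophils, cholangiocytes and pancreatic acinar cells summed higher in all 3 mutants than in any control, and those of endothelial and stellate cells overlapped between the groups. Most of the cholangiocyte sum came from Tm4sf4 (884 ± 142 in controls and 1275 ± 268 in mutants, adjusted p = 0.155 by limma), while 3 of the 5 tested members were lower (median -0.27). Most of the acinar sum came from Cela1 (990 ± 39.0 and 1212 ± 155, adjusted p = 0.276 by limma), and 3 of its 6 tested members were lower (median 0.02). In bulk tissue, a change in the number of cells of a type and a change in RNA per cell cannot be told apart.

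The 3′ to 5′ signal ratio, a common check on RNA quality, differed among the mutant arrays. Affymetrix arrays carry probe sets at the 3′ and 5′ ends of a few transcripts, and a ratio of 3′ to 5′ signal above that of the other arrays marks RNA in which 5′ sequence was less well represented. For Pcx the ratio was 3.19, 4.21 and 2.33 in controls 1 to 3 and 11.8, 4.09 and 13.2 in mutants 1 to 3. Averaged over Actb, Gapdh and Pcx on the log2 scale, it was 0.739, 0.965 and 0.496 in controls against 1.90, 0.904 and 1.87 in mutants. Mutants 1 and 3 thus stood above all controls, and mutant 2 lay inside the control range. The difference of the means was 0.826 (two-sided exact permutation p = 0.2; 3 against 3 arrays cannot give less than 0.1). Across the 45037 probe sets that are not array controls, mutant 2 correlated with the control livers at r = 0.956 to 0.958. Mutants 1 and 3 did so at 0.943 to 0.948. Mutant 2 correlated with the other mutants at 0.953 to 0.954. With the middle probe set in place of the 3′ one, the difference was 0.136. The middle to 5′ ratio was 1.88, 1.92 and 1.36 for Pcx in controls against 1.35, 1.84 and 1.73 in mutants, which is not above the controls. Both of these Pcx signals were low in mutants 1 and 3 as deposited. The middle signal was 805, 641 and 1031 in controls against 141, 574 and 132 in mutants. The 5′ signal was 428, 333 and 759 against 104, 312 and 76. For Gapdh the middle to 5′ ratio was 1.03, 1.09 and 0.894 against 1.33, 1.03 and 1.33, with mutants 1 and 3 above all controls. For Actb it was 1.33, 1.34 and 1.26 against 1.63, 1.36 and 1.49, again with mutants 1 and 3 above all controls. Many lists and genes below are therefore given with their values in mutants 1, 2 and 3. The mean log2 3′ to 5′ ratios of these arrays were 1.90, 0.904 and 1.87. Other lists and genes are given only as a difference over the 3 mutants, which does not show their value in mutant 2.

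**Figure D1:**
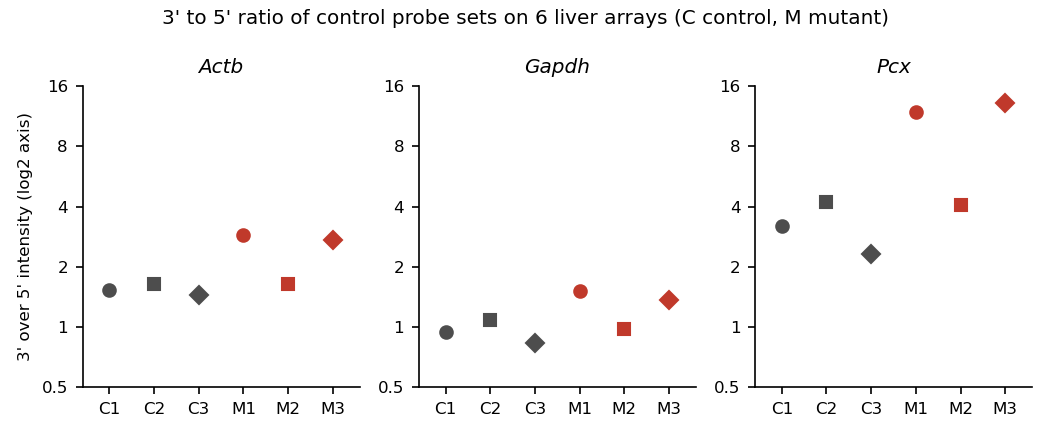
The 3′ to 5′ intensity ratio (log2 axis) of the control probe sets for Actb, Gapdh and Pcx, 1 point per liver array, with controls C1 to C3 in grey and mutants M1 to M3 in red. M1 and M3 lie above all controls for each transcript, with Pcx at 11.8 and 13.2, while M2 lies at 4.09, inside the control range of 2.33 to 4.21.

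Of 13326 genes tested, 447 (3.35%) passed an adjusted p of 0.05 in limma, 310 (2.33%) higher and 137 (1.03%) lower in mutant liver. The changes were moderate. The genes that rose had a median fold of 1.74 (1.31 to 3.00), with 55 of them at 2-fold or more, and those that fell had a median fold of 1.63 (1.26 to 3.07), with 11 at 2-fold or more. The balance between rises and falls depended on scaling: it was 279 to 18 on values as deposited and 300 to 33 after median centring, although the median difference over all genes was only 0.01. The groups failed to overlap for 3194 genes (24%), 1728 higher (13%) and 1466 lower (11%). Whether each array stands for its own mouse is not in the labels, so a p-value here reflects how much these arrays scatter, which can be technical scatter alone. An unadjusted p under 0.05 was reached by 2615 genes (19.6%). The share past the threshold was larger among brighter genes, which matters for the counts of lists below. With a mean intensity from 200 to 1000, 4.44% of genes rose and 0.852% fell. From 1000 to 8000, 9.38% rose and 7.76% fell.

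The number of genes past the threshold rested on single arrays. It was 0 without control 2 and 0 without mutant 1 (limma, with 2286 and 1752 genes at an unadjusted p under 0.05), 27 without control 1, 26 without control 3, 43 without mutant 3 and 739 without mutant 2. With mutants 1 and 3 both left out, 0 genes passed (1093 at an unadjusted p under 0.05 by limma), and mutant 2 is then a lone array assumed to vary like the controls. With the mean log2 3′ to 5′ ratio as a covariate, 2 genes passed, both lower. In all 447 genes the mutant arrays lay on 1 side of all control arrays, so a fit with arrays left out cannot turn their direction and says nothing of its stability.

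Mutant 2 took part in the fit that chose these genes, so its shared direction comes with the choice; the size of its change is a description. In mutants 1, 2 and 3 the genes that rose lay a median of 0.92, 0.71 and 0.73 above the control mean, and those that fell lay at -0.79, -0.49 and -0.77. Mutant 2 had the smallest of the 3 changes in 51.9% of the genes that rose and in 75.2% of those that fell. Set against the mean change of mutants 1 and 3, its change had a median share of 0.859 for the rises (quartiles 0.749 and 1.02) and 0.681 for the falls (0.502 and 0.847). The part of the 3′ to 5′ ratio in these differences was not tested.

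**Figure D2:**
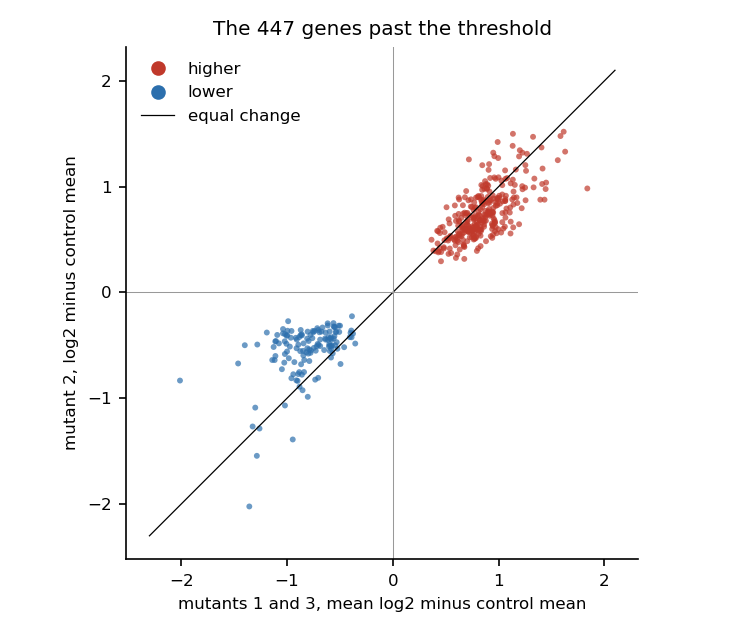
Each point is 1 of the 447 genes past the threshold, with its change in mutants 1 and 3 averaged on the x axis and its change in mutant 2 on the y axis, both as log2 minus the control mean, and the line marking equal change. Points of the 137 lower genes mostly lie nearer to 0 in mutant 2 than in the other mutants, while the 310 higher genes lie closer to the line.

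Some genes for plasma proteins made by hepatocytes fell in mutant liver, and most did not pass. Of 34 tested acute phase genes 7 fell and 0 rose, and 27 of the 34 differences were below 0 (median -0.15). Itih4, a heavy chain of the inter-alpha-trypsin inhibitor family, read 8513, 8287 and 8946 in controls and 5966, 6391 and 5478 in mutants. No mutant came near the control range, and the fall was similar on all 3 arrays (-0.53, SE 0.09, adjusted p = 0.0180 by limma). Serpina3n, an antiprotease of the acute phase, read 3053, 3129 and 2655 against 1747, 1974 and 1670 (-0.71, SE 0.12, adjusted p = 0.0180 by limma). Il6ra, the receptor subunit through which interleukin-6 drives acute phase transcription, read 427, 364 and 312 against 199, 210 and 195 (-0.81, SE 0.16, adjusted p = 0.0301 by limma). The related heavy chains Itih1 and Itih3 fell by 0.54 and 0.48, and Cp, the copper-carrying ferroxidase ceruloplasmin, fell by 0.46.

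Of 45 complement and coagulation genes 7 fell and 1 rose, with a median of -0.19. The 2 lists share members, and together they held 76 tested genes, of which 14 fell and 1 rose. Mbl2, the mannose-binding lectin that starts the lectin pathway, read 5510, 5709 and 4623 in controls and 3863, 3075 and 2063 in mutants (-0.85, SE 0.19, adjusted p = 0.0425 by limma). The chains of complement component C8 moved in opposite directions. C8a read 4978, 5335 and 4840 against 2373, 3497 and 3486 (-0.71, SE 0.15, adjusted p = 0.0310 by limma), and C8g read 6814, 7225 and 6099 against 9189, 8219 and 9189 (0.40, SE 0.09, adjusted p = 0.0447 by limma). Serpinf2, the plasmin inhibitor alpha-2-antiplasmin, Serping1, the inhibitor of complement C1, and Hrg, histidine-rich glycoprotein, fell by 0.53, 0.51 and 0.38. For these plasma protein genes the medians in mutants 1, 2 and 3 were -0.25, -0.18 and -0.12, beside mean log2 3′ to 5′ ratios of 1.90, 0.904 and 1.87.

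Other secreted products of the liver moved both ways, with 3 of 31 hepatokine and hormone genes higher and 3 lower. Lect2, a hepatokine that is raised in fatty liver, read 2305, 2397 and 1902 in controls and 3149, 3840 and 3094 in mutants, with its highest value in mutant 2 (0.61, SE 0.13, adjusted p = 0.0354 by limma). Bmp2, a ligand that raises hepcidin transcription in hepatocytes, read 103, 84.3 and 98.3 against 187, 203 and 193 (0.92, SE 0.16, adjusted p = 0.0213 by limma), again with no overlap. Fetub, a plasma protease inhibitor, fell by 0.53, and Tfr2, the hepatocyte iron sensor upstream of hepcidin, fell by 0.65. Igfals, the acid-labile subunit that holds IGF in the circulation, read 1366, 1272 and 1011 against 625, 803 and 755 (-0.72, SE 0.16, adjusted p = 0.0372 by limma). On the list of insulin and IGF signalling genes it was 1 of 3 that fell among 42, with 0 higher, a median of -0.23 and array medians of -0.22, -0.13 and -0.29.

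**Figure D3:**
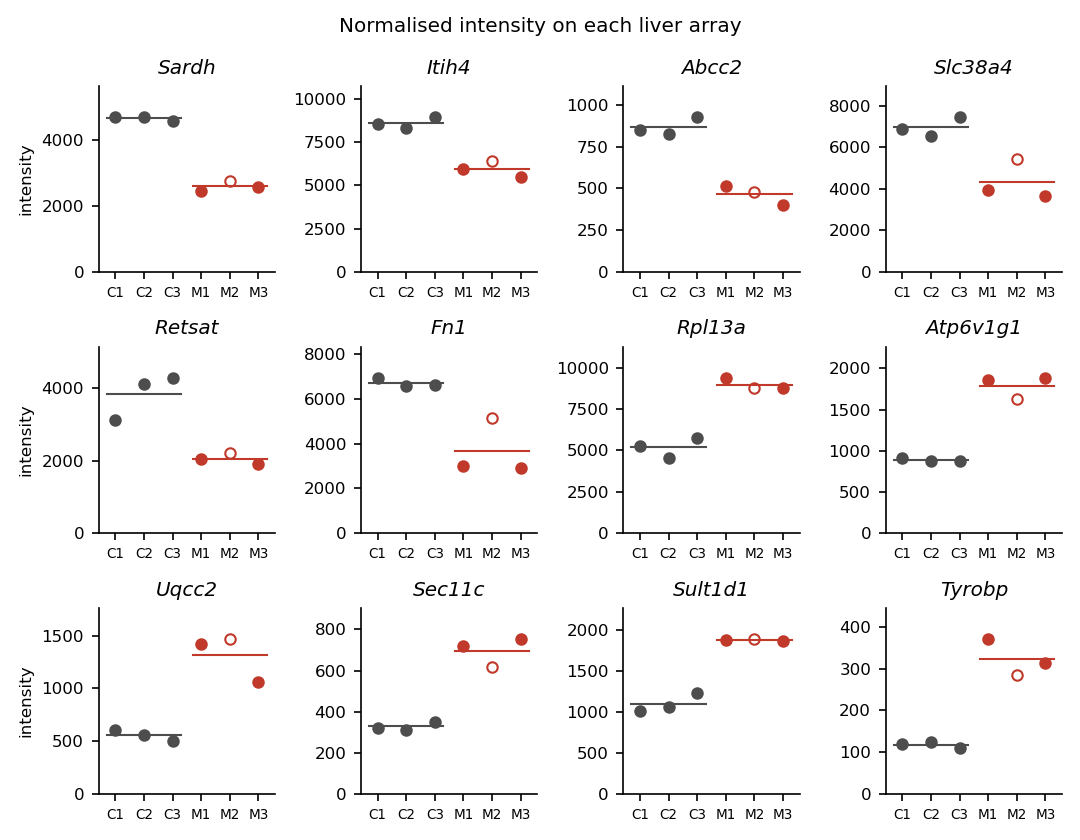
Normalised intensity (y axis, from 0) of 12 named genes on each liver array, with controls C1 to C3 in grey, mutants M1 to M3 in red, M2 as an open point and group means as lines. All 12 were picked from the genes past the threshold; Sardh in M2 (2748) lies close to M1 and M3, while Fn1 in M2 (5162) lies between M1 and M3 and the controls.

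A minority of genes for amino acid handling fell. The urea and nitrogen list had 4 of 18 genes lower and 0 higher (median -0.23; -0.34, -0.19 and -0.24 in mutants 1 to 3), and all 4 were amino acid transporters of the plasma membrane. Slc38a4 read 6870, 6554 and 7450 in controls and 3920, 5431 and 3672 in mutants, with mutant 2 nearest to the controls (-0.70, SE 0.14, adjusted p = 0.0293 by limma). Slc7a2, a carrier of arginine and other cationic amino acids, read 5190, 4514 and 5727 against 2875, 3974 and 2403 (-0.76, SE 0.17, adjusted p = 0.0393 by limma). The neutral amino acid and glutamine carriers Slc38a2 and Slc38a3 fell by 0.83 and 0.51. The first enzyme of the urea cycle did not pass: Cps1 read 11460, 10520 and 10640 against 9926, 10620 and 9379 (-0.12, adjusted p = 0.439 by limma), and its difference was 0.01 on values as deposited and after median centring.

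Among 51 genes of amino acid breakdown, 4 fell (7.84%, near the 7.76% of all genes with a mean intensity from 1000 to 8000) and 0 rose (median -0.18; -0.12, -0.21 and -0.17 in mutants 1 to 3). Sardh, the mitochondrial sarcosine dehydrogenase that passes a one-carbon unit to folate, read 4679, 4682 and 4568 in controls and 2452, 2748 and 2564 in mutants. Both groups were tight, and the fall was nearly the same in all 3 mutants (-0.84, SE 0.09, adjusted p = 0.0172 by limma). Other enzymes that hand one-carbon units to or from folate also fell: Aldh1l1, which oxidises formyl-tetrahydrofolate, by 0.57, Shmt2, the mitochondrial serine hydroxymethyltransferase, by 0.56, and Ftcd, the last step of histidine breakdown to glutamate, by 0.47. The one-carbon list as a whole was balanced, with 1 of 26 higher (Mat2b, 0.73), 2 lower and a median of -0.03.

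Of the malate-aspartate shuttle, which carries reducing equivalents into mitochondria, 3 enzymes that fell are given here and the other members are not. Mdh1, the cytosolic malate dehydrogenase, read 5311, 5076 and 4947 in controls and 3126, 3683 and 3992 in mutants (-0.51, SE 0.11, adjusted p = 0.0350 by limma), but the mean over all its probe sets gave 0.06. Got2, the mitochondrial aspartate aminotransferase, read 5886, 5966 and 6511 against 4043, 4731 and 4035 (-0.52, SE 0.10, adjusted p = 0.0259 by limma). Its cytosolic partner Got1 fell by 0.90. These genes were grouped after their values were seen and because they fell, so they do not describe the shuttle as a whole. All 3 belong to the gluconeogenesis list, where 5 of 18 fell, 0 rose and the array medians were -0.55, -0.38 and -0.47. On the list for the tricarboxylic acid cycle 3 of 21 fell and 0 rose, with array medians of -0.28, -0.26 and -0.09. The cytosolic Mdh1 and Pcx, pyruvate carboxylase, are among the falls counted in both lists. Of 33 mitochondrial carriers 1 fell, the dicarboxylate carrier Slc25a10 (-0.51).

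In lipid export the members moved in opposite directions. Mttp, the microsomal transfer protein that loads lipid onto apolipoprotein B, read 1577, 1607 and 1596 in controls and 774, 1195 and 800 in mutants (-0.81, SE 0.17, adjusted p = 0.0328 by limma). Mutant 2 lay between the other mutants and the controls. Sar1b, the GTPase that starts the coated vesicles in which lipoproteins leave the endoplasmic reticulum, read 5076, 4942 and 4545 against 6890, 6528 and 6672 (0.46, SE 0.09, adjusted p = 0.0246 by limma). Lcat, which esterifies plasma cholesterol, fell by 0.59, and Scap, the escort of SREBP precursors, read 1264, 1186 and 1213 against 649, 779 and 705 (-0.77, SE 0.13, adjusted p = 0.0180 by limma). Of 34 lipoprotein genes 3 fell and 1 rose. The falls were 8.82% of the list, near the 7.76% of all genes with a mean intensity from 1000 to 8000. The median of the list, -0.08, turned to 0.07 relative to all genes on values as deposited and after median centring.

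Bile formation genes had 4 of 28 lower, 1 higher and a median of -0.25 (-0.35, -0.19 and -0.31 in mutants 1 to 3). Abcc2, the canalicular pump for conjugated bilirubin and other organic anions, read 851, 828 and 928 in controls and 513, 481 and 401 in mutants (-0.88, SE 0.14, adjusted p = 0.0180 by limma). Mutant 2 was not the mildest here. Akr1c6, a hydroxysteroid dehydrogenase, rose from 8539, 8697 and 9477 to 12540, 11870 and 12340 (0.46, SE 0.08, adjusted p = 0.0180 by limma). It was 1 of 5 rises among the 83 genes with a mean intensity of at least 8000, of which 2 fell. Acox2, the peroxisomal oxidase of bile acid side chains, fell by 0.67. Targets of PPAR-alpha and peroxisomal oxidation genes had 4 of 33 lower, 0 higher and array medians of -0.30, -0.25 and -0.38, with the thiolase Acaa1b down by 0.39.

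Drug-metabolising enzymes did not move as 1 group. Of 38 cytochrome P450 genes 6 fell and 1 rose, with a median of -0.09 and array medians of 0.00, -0.22 and -0.02; relative to all genes the median was 0.02 on values as deposited and after median centring. Cyp2c50 fell by 0.55, Cyp2d26 by 0.55, Cyp2d22 by 0.78, Cyp2a12 by 0.45 and Cyp2c54 by 0.41; these belong to families of near-identical copies whose signals an array may mix. Cyp2r1, the vitamin D 25-hydroxylase, read 165, 133 and 182 in controls and 372, 307 and 277 in mutants (0.93, SE 0.18, adjusted p = 0.0267 by limma). Of 47 conjugation enzymes 2 rose and 2 fell, with a median of 0.02. Both rises were sulfotransferases. Sult1d1 read 1015, 1059 and 1227 against 1882, 1893 and 1865, with the mutants nearly equal (0.77, SE 0.12, adjusted p = 0.0180 by limma), and Sult1b1 rose by 0.86.

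**Figure D4:**
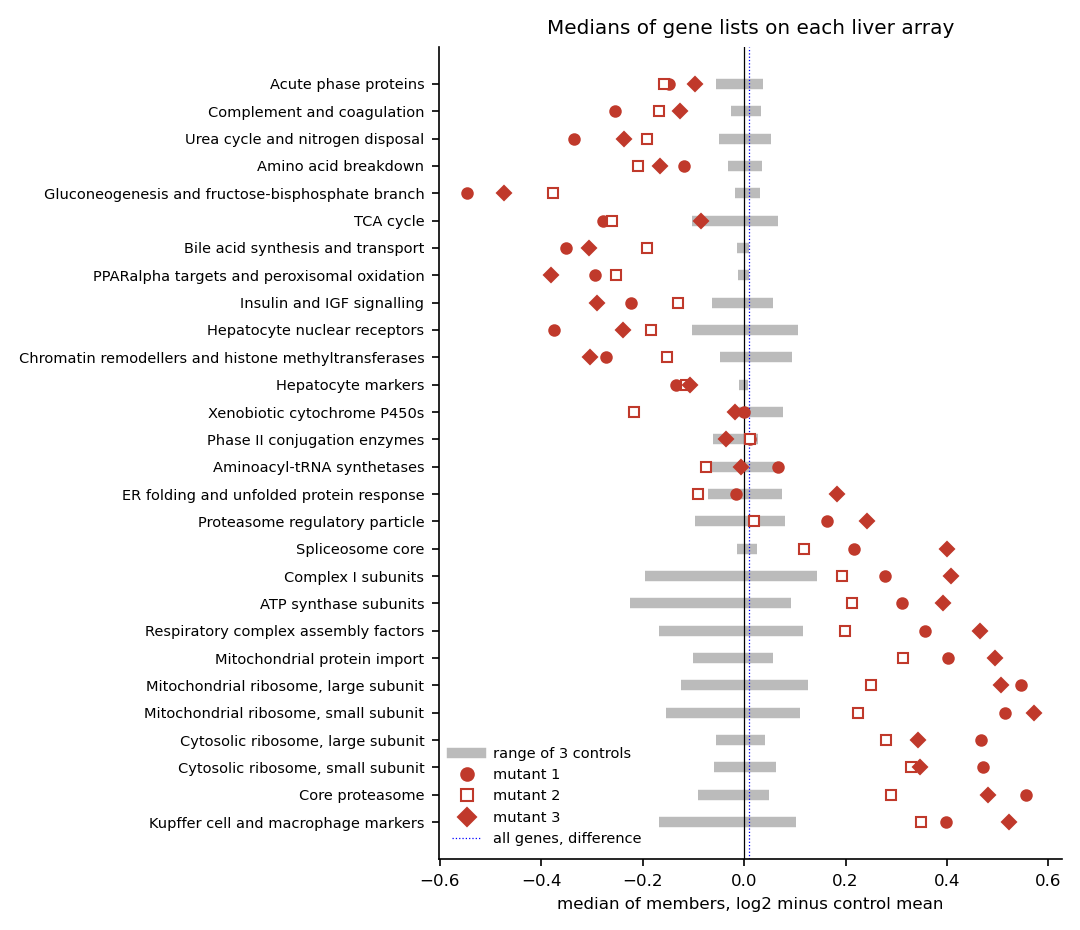
For 28 gene lists, the median change of the tested members on each mutant array (x axis, log2 minus the control mean) with the range of the 3 control arrays as a grey bar and the median difference over all genes as a dotted line. Mutant 2, the open square, lies outside the control bar for gluconeogenesis (-0.38), the core proteasome (0.29) and both subunits of the cytosolic ribosome (0.28 and 0.33), and inside it for conjugation enzymes (0.01) and the regulatory particle of the proteasome (0.02).

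Genes for the respiratory chain were among those that rose. Of 77 listed genes of the respiratory complexes and ATP synthase 14 rose (18.2%) and 0 fell, with array medians of 0.23, 0.16 and 0.36. The rises include Atpif1 (0.93), an inhibitor of ATP synthase and not a subunit. Atp5md (1.07), a subunit of ATP synthase, was not on the list. By complex, 7 of 34 rose in complex I, 2 of 13 in complexes II and III, 1 of 14 in complex IV with cytochrome c, and 4 of 16 in ATP synthase. In the same order, differences were above 0 for 28, 8, 12 and 11 genes and below 0 for 6, 5, 2 and 5. Complex IV as listed here, without Ndufa4, was at 7.14%, below the 9.38% of all genes with a mean intensity from 1000 to 8000. The shares of complexes I and IV depend on where Ndufa4 is counted. In ATP synthase 6 genes had all mutants above all controls and 2 had all mutants below, beside 13% and 11% of all genes. Among the latter was the bright alpha subunit Atp5a1, which read 7467, 8709 and 8591 in controls and 4397, 5683 and 6746 in mutants. It did not pass (-0.57, SE 0.14, adjusted p = 0.0557 by limma). The bright complex II subunit Sdhb also did not pass (-0.15, adjusted p = 0.539 by limma). Ndufa4, counted here under complex I but now assigned to cytochrome oxidase, read 6375, 6199 and 5917 in controls. In mutants it read 8072, 8709 and 7820, highest in mutant 2 (0.41, SE 0.08, adjusted p = 0.0306 by limma). Cox7a2, a small subunit of cytochrome oxidase, rose by 0.42, Ndufb6 by 0.50 and Atp5l by 0.54. Uqcrh, the hinge protein of complex III, read 2214, 2940 and 3753 against 4519, 5090 and 5280 (0.77, SE 0.17, adjusted p = 0.0375 by limma).

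Of 40 factors that build these complexes 6 rose and 0 fell, and 8 differences were below 0 (array medians 0.36, 0.20 and 0.47). Uqcc2, an assembly factor of complex III, read 606, 554 and 501 in controls and 1420, 1468 and 1065 in mutants (1.22, SE 0.16, adjusted p = 0.0180 by limma). The highest value was that of mutant 2. Cox17 and Cox19, which work in copper delivery to cytochrome oxidase, rose by 0.81 and 1.08, Coa3 by 0.64 and Sdhaf4, which assists the flavoprotein of complex II, by 0.71. Pet100, an assembly factor of cytochrome oxidase that is not on the list counted here, read 800, 693 and 558 against 1875, 1714 and 1369 (1.26, SE 0.17, adjusted p = 0.0180 by limma). In the mitochondrial import list 10 of 32 rose and 1 fell (array medians 0.40, 0.31 and 0.50). Tomm7, a small subunit of the outer membrane pore, rose by 1.07, Timm8b, a chaperone of the intermembrane space, by 1.09, Dnajc15 by 0.90 and Pam16 by 0.90, while Hspd1, the matrix chaperonin, fell by 0.58.

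Mitochondrial translation and transcription also held genes that rose. In the mitochondrial ribosome 9 of 47 genes of the large subunit and 6 of 30 of the small subunit rose and 0 fell, with medians over both of 0.52, 0.24 and 0.52 in mutants 1 to 3, the smallest shift being that of mutant 2. Mrpl57 rose by 0.79 and Mrps33 by 0.70. Of 22 genes for mitochondrial DNA and RNA upkeep 4 rose and 0 fell (array medians 0.42, 0.06 and 0.38). Tefm, the elongation factor of mitochondrial RNA polymerase, read 184, 207 and 139 in controls and 419, 345 and 334 in mutants (1.00, SE 0.18, adjusted p = 0.0242 by limma). Slirp, which stabilises mitochondrial messenger RNA, rose by 0.86, and Ssbp1, the single-stranded DNA-binding protein of mitochondria, by 0.87.

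The promoters of 3 of these genes are shown because they hold the letters of motifs bound by partners of PGC-1 coactivators or by GABP, a regulator of respiratory genes, with the match in capitals. Each is the 250 bases upstream of the RefSeq start on the strand of the gene (GRCm38.p6). The windows are chr9:50603651-50603900 on the plus strand for Timm8b (the ERR letters TCAAGGTCA), chr11:80142154-80142403 on the minus strand for Tefm (the GABP letters ACTTCCGG, here as their reverse complement), and chr4:116075071-116075320 on the minus strand for Uqcrh (the GABP letters).
Timm8b: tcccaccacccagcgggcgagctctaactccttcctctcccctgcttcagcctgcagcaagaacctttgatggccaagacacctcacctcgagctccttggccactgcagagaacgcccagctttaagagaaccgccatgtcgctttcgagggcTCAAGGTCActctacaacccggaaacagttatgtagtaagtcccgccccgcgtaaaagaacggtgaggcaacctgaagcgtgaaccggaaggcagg
Tefm: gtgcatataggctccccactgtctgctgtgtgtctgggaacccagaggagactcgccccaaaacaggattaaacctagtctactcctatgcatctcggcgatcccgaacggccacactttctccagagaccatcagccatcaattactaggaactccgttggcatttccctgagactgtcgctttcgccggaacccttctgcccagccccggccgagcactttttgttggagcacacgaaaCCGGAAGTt
Uqcrh: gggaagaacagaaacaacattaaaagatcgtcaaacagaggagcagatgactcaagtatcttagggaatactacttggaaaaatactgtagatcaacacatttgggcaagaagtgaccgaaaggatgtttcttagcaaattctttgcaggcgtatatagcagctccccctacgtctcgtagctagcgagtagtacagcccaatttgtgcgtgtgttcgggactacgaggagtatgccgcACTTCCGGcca

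Searched on both strands in windows of 250 bases before to 50 after the start, the GABP letters were in 7.91% of the 10733 tested genes with a window, in 34 of the 253 genes that rose (13.4%) and in 3 of the 113 that fell (2.65%). In the tested genes of the mitochondrial lists the share was 15.9%, and in those of them that rose 14.0%. The ERR letters were in 0.391% of all tested genes, in 1 that rose and in 0 that fell, and the palindromic consensus of NRF1 was in 2.11%, 3.16% and 0.885% of these groups. The YY1 letters AAGATGGCG were in 3.11% of all tested genes, 4.35% of those that rose, 0.885% of those that fell and 10.7% of the mitochondrial lists. Over all 27025 genes with a window the shares were 4.31% for GABP, 0.466% for ERR, 1.07% for NRF1 and 1.64% for YY1. A match is a description of the letters and not of binding.

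In cytosolic protein synthesis the rises were mainly of ribosomal proteins. Of 45 ribosomal protein genes 12 rose (26.7%) and 0 fell, with array medians of 0.47, 0.32 and 0.34. Rpl13a read 5246, 4557 and 5765 in controls and 9379, 8782 and 8782 in mutants (0.80, SE 0.10, adjusted p = 0.0179 by limma), and Rps3 read 5413, 4746 and 4338 against 8136, 6913 and 6493 (0.57, SE 0.11, adjusted p = 0.0303 by limma). Ribosomal proteins have many processed copies in the genome, which a probe set may also detect. The elongation factors parted: Eef1b2, the exchange factor of elongation factor 1, rose from 1681, 1550 and 1622 to 3033, 2305 and 2547 (0.69, SE 0.13, adjusted p = 0.0242 by limma), and Eef2, the translocase, fell from 6245, 5683 and 5612 to 3628, 4564 and 3526 (-0.59, SE 0.11, adjusted p = 0.0272 by limma). Among 49 translation factors 3 rose (6.12%, beside 4.44% of all genes with a mean intensity from 200 to 1000) and 1 fell. Their median was 0.09, and relative to all genes it was -0.02 in mutant 2 alone. Of 37 aminoacyl-tRNA synthetases 0 passed by limma, with a median of -0.04.

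Proteins enter the secretory pathway through the signal recognition particle, the Sec61 channel and signal peptidase, and subunits of each of these rose. On the endoplasmic reticulum list 7 of 61 rose and 0 fell, although the median was only 0.06 and was below 0 in mutants 1 and 2 (-0.02, -0.09 and 0.18). Sec11c, a catalytic subunit of signal peptidase, read 323, 312 and 350 in controls and 719, 616 and 754 in mutants (1.05, SE 0.14, adjusted p = 0.0180 by limma). Its partner Spcs1 rose by 0.60, Srp14 and Srp19 of the signal recognition particle by 0.76 and 0.85, Sec61b by 0.60 and Ostc, a subunit of oligosaccharyltransferase, by 0.59. Prefoldin, which hands nascent actin and tubulin to the chaperonin, had its subunits Pfdn5, Pfdn1 and Vbp1 higher by 0.90, 0.94 and 0.85, which made up 3 of the 4 rises among 44 cytosolic chaperone genes.

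In the nucleus the list of core splicing factors had 7 of 47 higher and 1 lower (array medians 0.22, 0.12 and 0.40). The small Sm proteins Snrpg and Snrpe rose. Snrpg read 650, 561 and 603 in controls and 1548, 1250 and 1135 in mutants (1.09, SE 0.15, adjusted p = 0.0180 by limma). Prpf8, the large scaffold at the heart of the spliceosome, read 1038, 944 and 1046 against 474, 659 and 444 (-0.94, SE 0.17, adjusted p = 0.0218 by limma). Sf3b6, a small subunit of the U2 particle, rose by 0.98. In the Mediator complex, which links transcription factors to RNA polymerase II, 4 of 31 rose and 0 fell, among them Med11 (1.22) and Med21 (1.01), both with control means under 100. Polr1d, a subunit shared by RNA polymerases I and III, was 1 of 2 that rose among 44 polymerase and general factor genes, by 0.84. The 2 rises were 4.55% of that list, beside 2.33% of all genes and 4.44% of those with a mean intensity from 200 to 1000.

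Chromatin remodellers and histone methyltransferases leaned the other way without any gene past the threshold. Of 56 tested 0 passed by limma, while 51 had a difference below 0 and the median was -0.23 (-0.27, -0.15 and -0.30 in mutants 1 to 3), against 51.2% of all genes with a difference above 0. The smallest p of the list was that of Setd5, which read 118, 143 and 144 in controls and 93.8, 70.6 and 87.2 in mutants, lowest in mutant 2 (-0.60, adjusted p = 0.0939 by limma), followed by the NuRD helicase Chd4 (-0.71, adjusted p = 0.102 by limma). Of 24 hepatocyte nuclear receptor genes 0 passed by limma as well, with 18 below 0 and a median of -0.26 (-0.37, -0.18 and -0.24). Rxra, the shared partner of many of these receptors, was 0.71 lower (adjusted p = 0.0558), Ppara 0.71 lower (0.0858) and Hnf4a 0.41 lower (0.0847), all by limma. Cebpa, a factor of hepatocyte differentiation, was the 1 of 30 liver transcription factors that fell, from 4701, 5096 and 5331 to 3377, 4028 and 3456 (-0.48, SE 0.10, adjusted p = 0.0374 by limma).

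Of the proteasome, which degrades proteins marked with ubiquitin, both particles held genes that rose. In the core particle 5 of 22 genes rose, 0 fell and 21 had a difference above 0, with array medians of 0.56, 0.29 and 0.48. Pomp, the chaperone that matures the core, read 1916, 1731 and 1763 in controls and 3111, 2725 and 3324 in mutants (0.75, SE 0.11, adjusted p = 0.0180 by limma). In the regulatory particle 1 of 24 rose, Psmd14 (0.61), with array medians of 0.16, 0.02 and 0.24. This is 4.17%, near the 4.44% of all genes with a mean intensity from 200 to 1000. Relative to all genes the median of this particle was -0.01 without control 1, and the difference between the particles was not tested. Of 37 genes of the proton pump and the lysosome 3 rose and 1 fell. Atp6v1g1, a stalk subunit of the pump, read 916, 873 and 872 against 1855, 1630 and 1884 (1.00, SE 0.12, adjusted p = 0.0172 by limma), Atp6v0b rose by 0.74, and Tpp1, a lysosomal peptidase, fell by 0.68. All 3 rises among 38 antioxidant and glutathione genes were selenoproteins. Gpx4, which reduces lipid peroxides, read 1502, 2263 and 1442 against 4255, 2885 and 2999 (0.96, SE 0.19, adjusted p = 0.0306 by limma), and Selenok and Selenof of the endoplasmic reticulum rose by 0.75 and 0.71.

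Some macrophage genes rose in mutant liver. Of 25 tested Kupffer cell and macrophage markers 4 rose and 0 fell, 22 differences were above 0, and the array medians were 0.40, 0.35 and 0.52. Ctss, a lysosomal protease of antigen-presenting cells, read 235, 219 and 236 in controls and 415, 393 and 417 in mutants (0.79, SE 0.14, adjusted p = 0.0232 by limma), nearly equal in the 3 mutants. Vsig4, the complement receptor of Kupffer cells, read 267, 207 and 195 against 433, 323 and 445 (0.80, SE 0.18, adjusted p = 0.0453 by limma). Tyrobp and Lyz2 were the other rises; Lyz1, which is near-identical to Lyz2, rose by 1.25. The brightest markers that did not pass were Csf1r and Cd5l. Csf1r, the receptor that macrophages need to survive, read 923, 850 and 679 against 657, 733 and 961 (-0.07, adjusted p = 0.882 by limma, with 0.03 on values as deposited and 0.02 after median centring), and Cd5l, a macrophage plasma protein, was 0.41 higher (adjusted p = 0.245 by limma). The summed intensity of the 25 tested markers ran from 3800 to 5036 on control arrays and from 5934 to 7148 on mutant arrays. The part of macrophage RNA in other results was not tested.

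Other immune genes were mixed. Markers of lymphocytes and neutrophils had 1 of 21 higher, Vpreb3, at intensities of at most 85.4, and summed to 857 to 905 in controls against 1089 to 1355 in mutants. Of 44 interferon and antigen presentation genes 1 rose, Batf2, and 1 fell, the class I gene H2-D1, from 4211, 4228 and 4098 to 2836, 3358 and 3075 (-0.44, SE 0.10, adjusted p = 0.0425 by limma). The mean over all probe sets gave 0.00 for H2-D1, and class I genes are alike in sequence. Endothelial markers had 1 of 26 higher and stellate cell markers 0 of 19 by limma, with medians of -0.09 and 0.01. Matrix genes had 2 of 45 lower and 0 higher (array medians -0.17, -0.14 and -0.10). Fn1, fibronectin, which hepatocytes secrete into plasma, read 6931, 6590 and 6636 in controls and 2974, 5162 and 2895 in mutants (-0.92, SE 0.19, adjusted p = 0.0310 by limma). Its value in mutant 2 lay far from those of mutants 1 and 3, as did that of Col18a1, a basement membrane collagen that fell by 1.02. Mutants 1 and 3 are the arrays with the high 3′ to 5′ ratios, whose part in these falls was not tested.

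The genes past the threshold with the largest changes in mutant 2 itself, the mutant inside the control range of 3′ to 5′ ratios, were chosen on that value and are given as a description. Retsat, retinol saturase, read 3120, 4126 and 4287 in controls and 2047, 2221 and 1908 in mutants 1 to 3. St3gal5, the synthase of ganglioside GM3, read 1313, 1859 and 1494 against 770, 823 and 891. Fabp2, a fatty acid-binding protein, read 952, 1125 and 869 against 2197, 2379 and 1755, highest in mutant 2. In all of these the 3 mutants lay close together and apart from the controls. Chac2, which breaks down glutathione, read 292, 278 and 374 against 550, 769 and 500, and Ide, the insulin-degrading enzyme, read 390, 600 and 426 against 280, 255 and 265, with mutant 2 the most changed in both. Lactb, a mitochondrial serine protease homologue, read 466, 621 and 503 against 229, 293 and 302. Abcc2, Mbl2, Sardh, Uqcc2 and Pet100, whose values stand above, belonged to the same selection, as did Leap2, which antagonises the ghrelin receptor and read 1058, 559 and 744 against 2624, 2139 and 1421.

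Rises were more frequent among genes that span little of the genome. Transcript lengths were not used here, so genes were ranked by genomic span, introns included, into quintiles of 2660 or 2661. From the shortest to the longest quintile, 105, 97, 58, 35 and 15 genes rose, which is 3.95% of the shortest and 0.564% of the longest, and 16, 29, 27, 38 and 27 fell. The median difference went from 0.10 in the shortest quintile to -0.08 in the longest. On mutant 2 it went from 0.05 to -0.05, on mutant 1 from 0.15 to -0.07 and on mutant 3 from 0.17 to -0.08. Controls also sloped, control 2 from 0.05 to -0.02 and control 1 the other way, from -0.02 to 0.05. Across 13302 genes, which are not independent and share the arrays, Spearman's rho of span with the change was -0.111 in mutant 2, -0.167 and -0.193 in mutants 1 and 3, and -0.0878 to 0.107 in the controls.

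**Figure D5:**
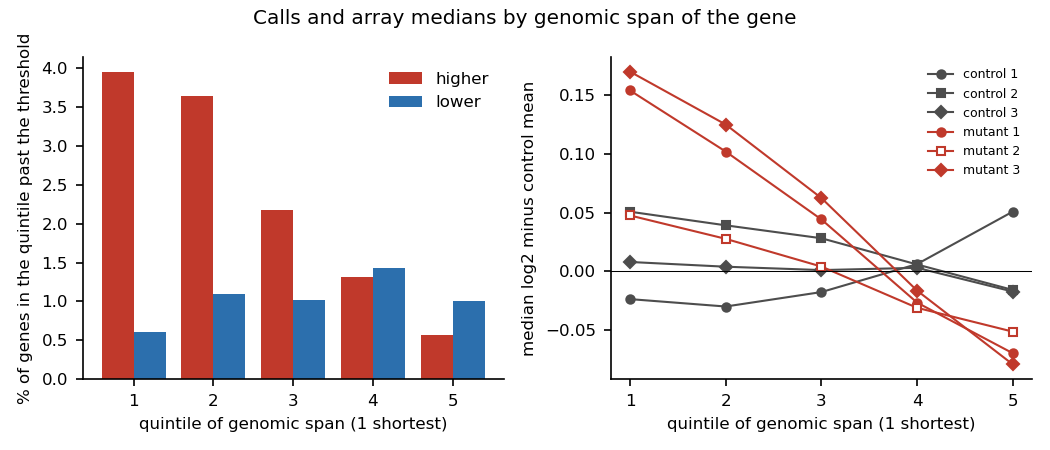
Left, the percentage of genes past the threshold in each quintile of genomic span, higher in red and lower in blue; right, the median log2 value minus the control mean in each quintile, 1 line per liver array. The share that rose goes from 3.95% in the shortest quintile to 0.564% in the longest, and the lines of mutants 1 and 3 are steeper than that of mutant 2, whose value in the shortest quintile (0.05) is close to that of control 2.

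Where a gene had further probe sets, these mostly pointed the same way but less far. Genes passed on the value of the probe set that stood for them, so smaller changes in the others can come with that choice. For 146 of the genes that rose, 253 other probe sets were present, of which 86.2% had a difference above 0, with a median of 0.52 against 0.74 for the probe set that stood for the gene. For 67 of the genes that fell, 82% of 128 other probe sets were below 0, with a median of -0.46 against -0.72. In genes that did not pass, 63.8% of other probe sets shared the sign. On mutant 2 the other probe sets had medians of 0.52 for the rises and -0.29 for the falls, against 0.67 and -0.51 on mutant 1 and 0.50 and -0.53 on mutant 3.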

How the data were processed

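Total RNA of 6 liver samples was measured on 1 array each. Per the labels and the value table, the authors deposited linear probe set intensity; the sources used here do not name the summary algorithm or how arrays were scaled. Precision is limited by how few arrays there were. Of 45101 probe sets 64 controls were left out. GEO's platform annotation gave a single symbol for 34945, with symbols of 34741 updated through Entrez identifiers against the GRCm38.p6 gene table, and each of 18193 genes was represented by its brightest probe set (mean log2 over the 12 arrays).

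As array medians differed by 0.377 on the log2 scale, above the 0.2 allowed, values were quantile-normalised within liver and taken as log2(value + 16). Genes whose liver mean exceeded the 40th percentile were tested with limma 3.58.1 in R 4.3.3 (lmFit, eBayes with an intensity trend, 4 residual degrees of freedom) with Benjamini-Hochberg adjustment over 13326 genes. Adjusted p-values for named genes come from this fit. No pair of arrays was a duplicate (r from 0.943 to 0.960). Same-numbered samples did not deviate together (correlations of -0.009, -0.115 and -0.034), so the numbers were not treated as pairs.

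On simulated data with 13326 genes, the test recovered 19.5% of 82 genes changed by a fold of 1.5. It recovered 59.3% of 54 at a fold of 2 and 92.2% of 64 at a fold of 4. Of its 111 calls, 4 were false. Whether these shares hold for the liver arrays, whose 3′ to 5′ ratios differed, was not tested. The 73 gene lists matched 2166 of 2401 written members (90.2%). The members, lists and tests were chosen with earlier results of these data known. Named genes were taken by rule: Ppargc1b and Ppargc1a; the 20 largest rises and 20 largest falls with no overlap and a mean intensity of at least 200; up to 6 members of a list past the threshold by p and up to 2 bright members that did not pass; up to 8 per direction with the largest change in mutant 2; and the 2 smallest p of lists with no call. The rule gave 354 genes, and 134 of those named in the text were followed under the alternatives. Alternatives were other offsets, filters, scalings, variance models and probe set choices, all 12 arrays, a replicate block, a 3′ to 5′ covariate, other thresholds and leaving out arrays. Plots used Python 3.11.15 and matplotlib 3.10.9. Scanner files and protein sequences were not used here.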

Additional observations from a re-analysis of the deposited data

How the results depend on the processing

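The count of genes past the threshold moved from 447 to 219 with no intensity filter (178 higher, 41 lower), 297 on values as deposited (18 lower), 172 when the probe sets of a gene were averaged (136 and 36), 994 in a fit of all 12 arrays (649 and 345) and 1025 at a threshold of 0.1 (644 and 381). Median centring left 33 lower, and array weights gave 209 lower. With no variance trend 0 genes passed (limma, 2332 at an unadjusted p under 0.05). A replicate block left 11 (10 higher, 1 lower) and the 3′ to 5′ covariate 2 (0 higher by limma, with 1011 genes of either direction at an unadjusted p under 0.05, and 2 lower); without mutants 1 and 3 it was 0. Leaving out 1 array gave 0 to 739 in all, 0 to 391 higher and 0 to 348 lower. The replicate block grouped arrays by sample number, and same-numbered arrays did not deviate together. Of the 447 genes, 439 of 444 kept their sign under the mean of probe sets; most other alternatives could not turn signs of genes chosen for groups that do not overlap. The difference in 3′ to 5′ ratio was 0.136 when the middle probe set replaced the 3′ one, and 0.655 to 1.15 with 1 array left out. Medians relative to all genes turned for lipoprotein genes (0.0677 as deposited and after median centring), P450 genes (0.0157 in both), translation factors (-0.016 without mutants 1 and 3) and the regulatory particle (-0.0117 without control 1, up to 0.185 without control 3). Genes that were not past the threshold turned sign as follows: Ppargc1b with the covariate (0.43), without mutants 1 and 3 (0.22) and with 1 array left out (-0.553 to 0.0794); Ppargc1a with the covariate (0.38) and without mutants 1 and 3 (0.22); Alb (0.0253 as deposited, 0.0204 centred); Cps1 (0.00999 and 0.00513); and Csf1r (0.0279 and 0.0231, and -0.219 to 0.0491 with 1 array left out). Past the threshold, Mdh1 (0.0551) and H2-D1 (0.00286) turned under the mean of probe sets. The cause of these changes was not tested. Offsets of 1 and 64, a filter at the 60th percentile, probe sets chosen by the liver mean and a fold of at least 1.5 changed no count by over 1.5 times. With 3 arrays a group, the number of arrays limits precision.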

Other observations

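The other 25 of the 73 lists, with 494 tested genes, held 6 genes that rose and 17 that fell, and their median differences ran from -0.48 to 0.37. Of 33 fatty acid and triglyceride synthesis genes 0 passed by limma and 27 were below 0 (median -0.33). Their array medians were -0.42, -0.05 and -0.40 in mutants 1 to 3. Of 25 mitochondrial fatty acid oxidation and ketogenesis genes 2 fell, 0 rose and 19 were below 0 (array medians -0.16, -0.20 and -0.04). Blvra, biliverdin reductase of haem breakdown, read 240, 293 and 208 in controls and 522, 421 and 430 in mutants (0.86, SE 0.17, adjusted p = 0.0303 by limma). Pcyt1a, the rate-setting enzyme of phosphatidylcholine synthesis, read 545, 542 and 533 against 259, 404 and 266 (-0.80, SE 0.18, adjusted p = 0.0433 by limma). Lipe, hormone-sensitive lipase, fell by 0.96 at intensities of at most 165. H6pd, which makes NADPH inside the endoplasmic reticulum, read 2003, 2042 and 1625 against 889, 1363 and 844 (-0.89, SE 0.18, adjusted p = 0.0331 by limma), and Pdk2, a kinase that inhibits pyruvate dehydrogenase, read 1205, 1291 and 1120 against 638, 799 and 537 (-0.87, SE 0.16, adjusted p = 0.0242 by limma). Sqstm1, the autophagy receptor p62, fell by 0.55. For each of these genes the mutants lay on 1 side of all controls, and mutant 2 lay nearest to the controls for Blvra, Pcyt1a, Lipe, H6pd and Pdk2.

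Rises and falls were spread unevenly over intensity. Of 8667 genes with a mean intensity under 200, 0.508% rose and 0.173% fell; of 1173 genes from 1000 to 8000, 9.38% rose and 7.76% fell. Of the 83 genes at 8000 or more, 6.02% rose and 2.41% fell, and their differences lay between -0.46 and 0.51.

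Hybridisation controls, which are added in equal amounts and do not come from liver, were higher on the mutant arrays as deposited. BioC read 433 to 519 on control arrays and 556 to 574 on mutant arrays, BioD 1340 to 1686 against 1767 to 1903, and Cre 7269 to 8933 against 9286 to 9582. BioB, the dimmest, overlapped, with 216 to 289 against 253 to 322. Mutant 2 was above the control arrays for BioC, BioD and Cre like mutants 1 and 3.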
